A study of Mus musculus with 4 samples.

Results

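The genes of the proteasome were followed in mouse stomach on single-colour microarrays, in males of 2 strains. The probes described are those whose platform annotation gives a single gene symbol starting with Psma, Psmb, Psmc, Psmd, Psme or Psmg and a digit. This choice gave 36 probes, each for a different gene, of 33012 probes on the array and 14411 with 1 gene symbol. Of the 36, 34 encode proteasome subunits, activators or assembly chaperones, and 2, Psmc3ip and Psme3ip1, are named after a subunit or activator that their product binds. A signal on all 4 arrays was present for 34 of the 36 (94.4%), against 54.9% of all probes with 1 symbol. Psmb8 had a signal on 1 array and Psmb11 on none.

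One strain was B6.CAST-17, a homozygous congenic that by its name carries chromosome 17 material of CAST origin on a B6 background. It was set against C57BL/6J wild-type mice. Neither the ends of the congenic segment nor the age of the mice is stated in the labels. All animals were males on chow, without food for the last 4 h, and whole stomach was taken. Each strain was represented by 2 arrays, each a pool of RNA from 3 of its 6 animals, so p-values and intervals describe the spread between pools and not between single mice.

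The proteasome is the protease that degrades proteins tagged with ubiquitin. Its barrel, the 20S core, is built of rings of alpha subunits, which gate the entrance, and rings of beta subunits, some of which carry the cutting sites. The 19S particle caps the barrel, where its ATPases unfold substrates and its other subunits recognise and remove ubiquitin. Interferon replaces the cutting subunits with Psmb8, Psmb9 and Psmb10 to form the immunoproteasome, which favours peptides for display by class I molecules, and Psmb8 and Psmb9 are encoded in the major histocompatibility region of chromosome 17. In the stomach, as in other tissues, the constitutive subunits are housekeeping genes. Of 50 protein-coding genes of these families in RefSeq, 14 had no probe under their symbol alone in the annotation table used and were not analysed here, among them Psmb9, Psmb6, Psma1, Psma2, Psme1 and the 19S genes Psmd1, Psmd3, Psmd8, Psmd11 and Psmd14.

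The array values are deposited log2 signals. A value was given for between 16320 and 16954 probes per array, and 13475 probes with a value on all 4 arrays were compared between the strains with limma. Pearson's r over the probes (no independent replicates) was 0.991 between the congenic pools, 0.988 between the wild-type pools and between 0.983 and 0.986 across strains. Of a list of stomach markers, 8 genes were compared and each had a signal on every array. Atp4a, the acid pump of parietal cells, read 19.58 and 19.51 in the congenic pools, against 19.77 and 19.75 in the wild-type pools. Limma called 0 of the 8. One of them, Gkn2, read 21.25 on all 4 arrays, the highest value of each array, and so could show no difference. An unadjusted p under 0.05 was reached by 3 (15.8% of all compared probes did), with both congenic pools below both wild-type pools. These were Gast, the gastrin gene (-0.59 ± 0.099; limma adjusted p = 0.113), Ghrl, the ghrelin gene (-0.43 ± 0.093; limma adjusted p = 0.171), and Atp4a (-0.21 ± 0.079; limma adjusted p = 0.288). Cblif, the intrinsic factor gene, differed by 0.64 ± 0.33 (limma adjusted p = 0.408). It read 20.20 and 20.24 in the congenic pools, against 19.02 and 20.14 in wild-type pools 1 and 2. Wild-type pool 1 alone was low, and most of the difference rests on it. Markers of other tissues were called: 9 of 10 compared exocrine pancreas markers and 2 of 6 liver markers were called higher in the congenic pools, and 3 of 7 skeletal muscle markers were called lower. The median difference of the compared markers was 2.67 log2 for pancreas, 1.25 for liver and -1.18 for muscle. The summed signal of the pancreas markers was 20.50 and 20.28 log2 in the congenic pools, against 19.87 and 20.08 in the wild-type pools. Most of that sum came from the bright Clps, a gene of chromosome 17 and the marker of the 10 that was not called. It differed by -0.086 ± 0.14 with overlapping strains, so the sum says little about the other pancreas markers. The summed muscle signal was 15.66 and 15.71 log2 in the congenic pools, against at least 16.98 in both wild-type pools, and the summed liver signal was 18.74 and 18.64 in the congenic pools, against 18.56 and 18.57 in the wild-type pools. Most of the liver sum came from Apoa1 and Ttr, which differed by 0.055 ± 0.073 and 0.050 ± 0.077. Without congenic pool 1 the calls were 5 pancreas, 0 liver and 1 muscle marker, and without congenic pool 2 no liver marker was called. The part of these tissues in the values of the proteasome genes was not tested, and in whole stomach fewer cells of a type and less RNA per cell cannot be told apart.

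Promoter sequences are shown for 4 of the genes that had a window in RefSeq as used here. Psmb1 and Psmb7, described below, had no such window. Psmb3, Psmb5 and Psme3 are among the genes whose congenic pools both read below both wild-type pools, and Psmb8 lies on the chromosome named in the congenic strain. Each window holds 300 bases around the annotated start, most of them before it, read in the direction of the gene, from RefSeq on build GRCm38.p6. That build is of C57BL/6J, and the CAST bases at these places were not analysed here. The windows are chr11:97703184-97703483 on the plus strand for Psmb3, chr14:54617946-54618245 on the minus strand for Psmb5, chr11:101315963-101316262 on the plus strand for Psme3 and chr17:34197945-34198244 on the plus strand for Psmb8. Capitals mark matches on either strand to CCAAT, the box bound by NF-Y, or to TGACNNNGC, the core of the antioxidant response element bound by Nfe2l1 and Nfe2l2.
Psmb3: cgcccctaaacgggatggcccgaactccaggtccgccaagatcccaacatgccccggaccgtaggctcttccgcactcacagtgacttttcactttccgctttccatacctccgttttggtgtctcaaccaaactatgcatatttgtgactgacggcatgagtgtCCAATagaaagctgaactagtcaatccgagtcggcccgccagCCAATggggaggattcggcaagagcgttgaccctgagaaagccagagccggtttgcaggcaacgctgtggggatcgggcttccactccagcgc
Psmb5: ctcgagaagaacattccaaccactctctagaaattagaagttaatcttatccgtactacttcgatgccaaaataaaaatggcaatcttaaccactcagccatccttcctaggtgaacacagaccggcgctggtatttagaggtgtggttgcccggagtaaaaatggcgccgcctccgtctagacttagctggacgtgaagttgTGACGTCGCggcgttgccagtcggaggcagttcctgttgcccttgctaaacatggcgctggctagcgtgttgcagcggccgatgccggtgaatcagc
Psme3: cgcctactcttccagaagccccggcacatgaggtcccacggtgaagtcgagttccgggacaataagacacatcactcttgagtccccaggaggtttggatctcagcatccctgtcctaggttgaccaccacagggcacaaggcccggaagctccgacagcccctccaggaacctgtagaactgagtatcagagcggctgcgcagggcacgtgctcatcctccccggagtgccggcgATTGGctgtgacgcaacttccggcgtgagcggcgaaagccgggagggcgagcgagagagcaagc
Psmb8: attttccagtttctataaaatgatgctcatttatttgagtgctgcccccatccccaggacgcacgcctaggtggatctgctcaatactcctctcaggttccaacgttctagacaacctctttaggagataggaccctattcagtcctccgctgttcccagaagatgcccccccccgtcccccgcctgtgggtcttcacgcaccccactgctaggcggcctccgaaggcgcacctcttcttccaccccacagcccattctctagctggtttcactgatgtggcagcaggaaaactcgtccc

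Psmb3 held 2 CCAAT matches. Psmb5 held 1 match to the antioxidant element core, Psme3 held 1 CCAAT match, and the Psmb8 window held neither motif. The RefSeq table gave 34 such windows for 30 of the 36 genes. CCAAT occurred in 12 of the 34 (35.3%), against 37.4% of all 32851 windows in the table. TGACNNNGC occurred in 4 of 34 (11.8%), against 12.4% of all. These matches of letters describe the windows and are not evidence of binding.

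Between the strains, 0 of the 34 compared proteasome probes had an adjusted p under 0.05 in limma (Benjamini-Hochberg over all 13475 probes), against 0.475% of all compared probes. None passed at a threshold of 0.1 either, where 0.816% of all probes did. The smallest adjusted p was 0.178, for Psme3. At an unadjusted p under 0.05 there were 4 of 34, or 11.8%, against 15.8% of all compared probes: Psmb1 with higher signal in the congenic pools (7.12% of all probes were in this class), and Psmb3, Psmb7 and Psme3 with lower (8.66% of all). The pools of the strains did not overlap for 16 of 34, or 47.1%, against 49.4% of all compared probes. The congenic pools were lower for 11 (32.4%, against 26.1% of all) and higher for 5 (14.7%, against 23.4% of all). Over both directions the share without overlap is near the background, and the share at an unadjusted p under 0.05 is somewhat below it. The directions were not tested apart. The median difference of the 34, congenic minus wild type, was -0.039 on the log2 scale, against -0.0020 over all compared probes, with 20 differences below 0 (58.8%, against 50.4% of all) and 14 above. Without congenic pool 1, 2 probes had an unadjusted p under 0.05 and the median was -0.094, and without congenic pool 2 the median was -0.0051. In a fit with no variance trend, 1 probe reached an unadjusted p under 0.05.

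The data set bounds on what could have been missed. The 95% intervals of the differences in the main fit (limma) are per probe and not adjusted for the number of probes. They lay within 1 log2 of 0, that is within a 2-fold change, for all 34 probes, and within 0.5 log2 for 27. The widest interval was that of Psma5, from -0.68 to 0.89, which corresponds to 0.626-fold to 1.86-fold. With a robust prior the SE of Psma5 rose from 0.32 to 0.45, and that of Psmb4 from 0.24 to 0.29. Intervals were not computed for the alternative fits, so the 2-fold bound is that of the main fit only. Differences were below 0.25 log2 in size for 30 of 34 probes (88.2%), against 69.8% of all compared probes. The proteasome probes read brighter than the compared probes in general, with a median level of 14.60 against 12.81 log2, and their median SE was 0.090 against 0.13. The strain difference exceeded the gap between pools of both strains for 11 probes and was smaller than the gap in both strains for another 11. The same shares over all compared probes were not computed, so these counts are not read as a trait of the proteasome genes.

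**Figure D1:**
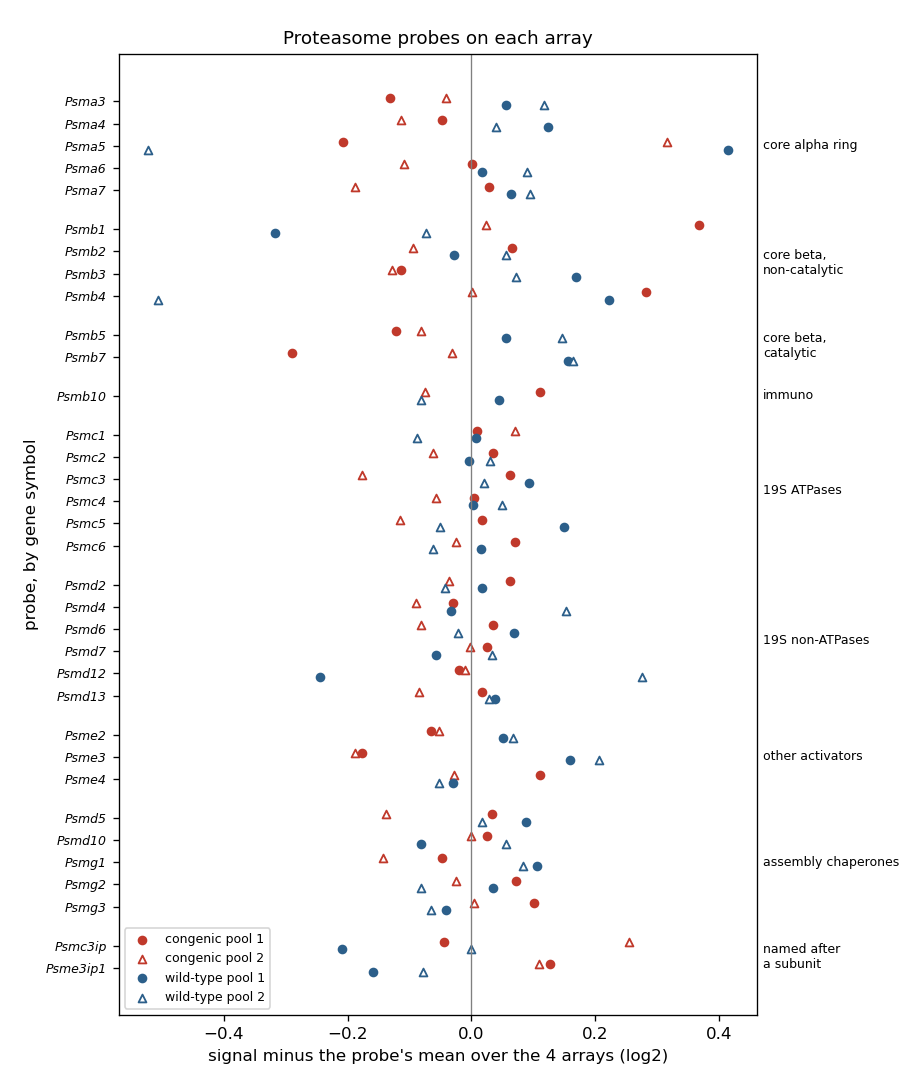
Signal of each of the 34 compared proteasome probes on each array, as log2 minus the probe's mean over the 4 arrays, grouped by role; circles are pools 1 and open triangles pools 2, with congenic pools in red above wild-type pools in blue. Psme3 shows pools of each strain close together and apart from the other strain, Psmb1 has both congenic pools highest, and Psma5, Psmb4 and Psmd12 have pools of a strain over 0.5 log2 apart.

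The alpha ring of the 20S core was represented by 5 genes, and 0 of 5 passed in limma, with 0 at an unadjusted p under 0.05. Psma4, an alpha ring subunit, read 15.02 and 14.96 log2 in congenic pools 1 and 2, against 15.19 and 15.11 in wild-type pools 1 and 2. Both congenic pools were below both wild-type pools. The difference was -0.16 ± 0.078 (SE, n = 2 pools per strain, as throughout; limma adjusted p = 0.373). Psma3 (-0.17 ± 0.090), Psma7 (-0.16 ± 0.092) and Psma6 (-0.11 ± 0.077) also had both congenic pools below both wild-type pools. Non-overlap in this direction was found for 26.1% of all compared probes. Psma5, singled out after its values were seen, read 14.43 and 14.95 in the congenic pools, against 15.05 and 14.11 in the wild-type pools. The pools of each strain were 0.525 and 0.939 log2 apart and the strains overlapped, so the sign of its difference (0.11 ± 0.32) depended on single pools.

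The beta ring subunits without a cutting site gave 0 of 4 calls in limma and 2 at an unadjusted p under 0.05, of opposite sign. Psmb3 read 15.58 and 15.56 log2 in the congenic pools, against 15.86 and 15.76 in the wild-type pools. The congenic pools differed by only 0.0147 and both lay below wild type. The difference was -0.24 ± 0.074 (limma adjusted p = 0.240; 95% interval -0.42 to -0.060). Psmb4, which helps to join the rings of the barrel, read 16.27 and 15.99 in the congenic pools, against 16.21 and 15.48 in the wild-type pools. Its wild-type pools were 0.729 apart and pool 2 alone was low, so that the difference of 0.28 ± 0.24 became -0.080 without wild-type pool 2. Psmb2 differed by -0.028 ± 0.085, with an interval of -0.24 to 0.18.

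Psmb1, another beta ring subunit, is a gene of chromosome 17 and was the only proteasome gene of that chromosome compared. It read 17.85 and 17.51 log2 in the congenic pools, against 17.17 and 17.41 in the wild-type pools. Both congenic pools were above both wild-type pools, though congenic pool 2 and wild-type pool 2 were close. The difference was 0.39 ± 0.14, or 1.31-fold (limma adjusted p = 0.278; 95% interval 0.049 to 0.73). It ranged from 0.22 to 0.56 when single pools were left out, with limma adjusted p between 0.322 and 0.513 in those fits. Among the 34 probes this was the largest positive difference. Set against the median of the other 10 constitutive core probes on the same array, Psmb1 read 1.99 and 1.73 log2 above it in the congenic pools, against 1.13 and 1.79 in the wild-type pools. On this measure the strains overlapped. It rests on the middle levels of different probes, so the low Psmb4 value of wild-type pool 2 could move it. The 11 core probes, Psmb1 included, were also centred on each probe's mean over the arrays. Their medians were -0.048 and -0.082 in the congenic pools, against 0.065 and 0.071 in the wild-type pools. Psmb1 read higher in both congenic pools, so set against these medians its strains did not overlap.

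In RefSeq gene order the compared genes nearest to Psmb1 were Phf10 before it, with 20 annotated genes between, and Tbp after it, with 0 between. Tbp, the TATA-binding protein, differed by -0.048 ± 0.21 and Pdcd2, next to it, by 0.10 ± 0.080, and Phf10, a chromatin remodelling subunit, by 0.086 ± 0.11. None of these 3 passed in limma. Thbs2, which encodes a matrix glycoprotein and lies before Phf10 with 25 annotated genes between it and Psmb1, was called higher (1.12 ± 0.13; limma adjusted p = 0.0332). It read 12.47 and 12.46 log2 in the congenic pools, against 11.37 and 11.32 in the wild-type pools. Over chromosome 17 as a whole, 20 of 383 compared named probes passed (5.22%, against 0.475% of all compared probes), 8 higher and 12 lower, and 34.5% had an unadjusted p under 0.05, against 15.8% of all compared probes. Sequence differences between the strains under the probes were not examined.

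The constitutive cutting subunits were represented by Psmb5, which cuts after hydrophobic residues, and Psmb7, which cuts after basic ones. Psmb7 read 16.15 and 16.41 log2 in the congenic pools, against 16.59 and 16.60 in the wild-type pools. Both congenic pools were lower, pool 1 by the wider margin. The difference was -0.32 ± 0.10, or 0.800-fold (limma adjusted p = 0.242; 95% interval -0.57 to -0.076). Psmb5 read 13.77 and 13.81 log2 in the congenic pools, against 13.95 and 14.04 in the wild-type pools. The groups did not overlap, and the difference was -0.20 ± 0.086 (limma adjusted p = 0.329; 95% interval -0.41 to 0.0090). The annotation holds pseudogenes of both Psmb5 and Psmb7, and whether their transcripts contribute signal was not examined.

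Taking alpha and beta rings together, the 11 constitutive core probes gave 0 calls in limma and 3 with an unadjusted p under 0.05 (27.3%, against 15.8% of all compared probes). Both congenic pools were below both wild-type pools for 7 of 11 (63.6%, against 26.1% of all compared probes) and above for 1 of 11, Psmb1 (9.09%, against 23.4%). Their median difference was -0.16, and between -0.16 and -0.13 with single pools left out. The core subunits are 1 complex measured on the same 4 arrays and are not independent observations. The 12 probes of the 19S particle had a median difference of -0.039, with 1 probe lower without overlap and 1 higher. The difference between the core and the 19S particle was not tested.

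**Figure D2:**
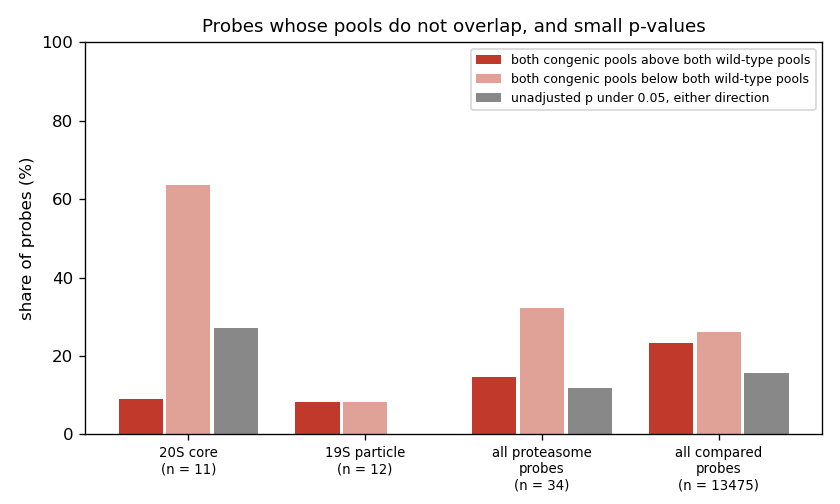
Share of probes, in percent, whose congenic pools both lie above (dark red) or below (light red) both wild-type pools, and share with an unadjusted p under 0.05 in limma (grey), for the constitutive 20S core, the 19S particle, all proteasome probes and all compared probes. The light red bar of the core stands at 63.6%, against 26.1% for all compared probes, while over all 34 proteasome probes it is 32.4%.

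The subunits of the immunoproteasome were measured in part. Psmb8, the inducible counterpart of Psmb5 and a gene of the major histocompatibility region, had no value in congenic pools 1 and 2 or wild-type pool 1, and read 12.60 log2 in wild-type pool 2. A blank is not read as an absent transcript, since what leaves a cell blank is not stated, and no strain difference was tested. Psmb10, the inducible counterpart of Psmb7, is not encoded on chromosome 17. It read 13.77 and 13.58 log2 in the congenic pools, against 13.70 and 13.58 in the wild-type pools. The strains overlapped and the difference was 0.037 ± 0.11 (limma adjusted p = 0.887; 95% interval -0.23 to 0.30). Psmb11, the cutting subunit of the thymus, was blank on all 4 arrays.

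The balance of inducible and constitutive cutting subunits was described within each array, as the Psmb10 value minus the mean of Psmb5 and Psmb7. It was -1.19 and -1.52 log2 in the congenic pools, against -1.57 and -1.74 in the wild-type pools. These values place different probes side by side, so only their change between arrays can be read. The strain difference was 0.30 log2, against a pooled SD between pools of 0.19, and the groups did not overlap. Of it, Psmb10 itself contributed 0.037. Leaving out single pools gave values between 0.13 (without congenic pool 1) and 0.47 (without congenic pool 2). With 2 pools against 2, an exact permutation test could not give a p under 0.333, and none was run.

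Around Psmb8, the transporter genes Tap1 and Tap2, which carry the cut peptides into the endoplasmic reticulum, were measured on all arrays. Tap1 read 11.18 and 10.80 log2 in the congenic pools, against 11.40 and 11.74 in the wild-type pools. Both congenic pools were lower, with a difference of -0.58 ± 0.22 that did not pass in limma (adjusted p = 0.291). Tap2 differed by -0.094 ± 0.19 and its strains overlapped. H2-Ob, the class II gene with 1 annotated gene between it and Psmb8, read 17.21 and 17.70 in the congenic pools, against 12.05 and 11.49 in the wild-type pools.

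**Figure D3:**
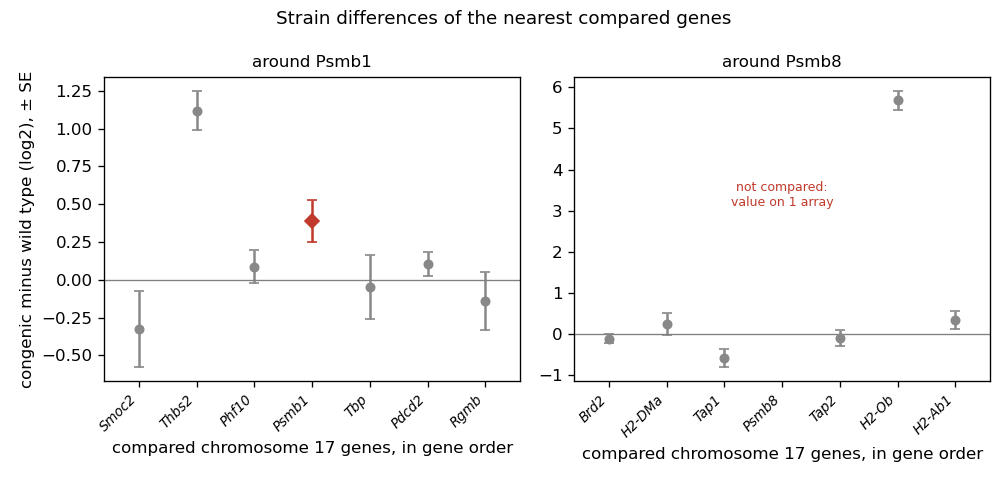
Strain difference, congenic minus wild type in log2 with SE bars, of the 3 compared genes on either side of Psmb1 (left) and Psmb8 (right) in RefSeq order, equally spaced and on different vertical scales; the red diamond is Psmb1 at 0.39. Thbs2 stands at 1.12 and H2-Ob at 5.68, while Tbp, Pdcd2, Phf10 and Tap2 lie within 0.11 of 0.

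The ATPases of the 19S base, which unfold substrates and open the gate of the core, gave 0 of 6 calls in limma and 0 at an unadjusted p under 0.05. Psmc1 read 15.63 and 15.69 log2 in the congenic pools, against 15.63 and 15.53 in the wild-type pools, a difference of 0.080 ± 0.076 (limma adjusted p = 0.631). The groups touched but did not overlap. The other 5 overlapped between strains, and their differences lay between -0.11 ± 0.10 for Psmc3 and 0.047 ± 0.076 for Psmc6. Psmc2 differed by -0.027 ± 0.073, with an interval of -0.21 to 0.15, Psmc4 by -0.052 ± 0.076 and Psmc5 by -0.098 ± 0.098.

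The non-ATPase subunits of the 19S particle also gave 0 of 6 calls in limma and 0 at an unadjusted p under 0.05. Psmd4, a receptor for ubiquitin chains, differed by -0.12 ± 0.096, and Psmd2, the scaffold of the base that docks ubiquitin shuttles, by 0.026 ± 0.078. Of the lid subunits, which hold the deubiquitinating part in place, Psmd6 differed by -0.047 ± 0.086, Psmd7 by 0.023 ± 0.075 and Psmd13 by -0.067 ± 0.083. Psmd13 alone of the 6 had strains that did not overlap, with congenic pools lower. Psmd12, another lid subunit, read 13.28 and 13.29 log2 in the congenic pools, against 13.06 and 13.58 in the wild-type pools. Its wild-type pools lay on either side of the congenic ones, 0.520 apart, and its difference was -0.031 ± 0.18.

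Other activators bind the ends of the core in place of the 19S particle. Psme3, the nuclear activator known as PA28 gamma, read 13.47 and 13.46 log2 in the congenic pools, against 13.81 and 13.86 in the wild-type pools. The pools of a strain differed by at most 0.0468, and the strains stood apart. The difference was -0.37 ± 0.086, or 0.776-fold, the largest negative one among the 34 (95% interval -0.58 to -0.15). It did not pass over all probes (limma adjusted p = 0.178), and its adjusted p lay between 0.142 and 0.482 under the 11 alternative fits, in each of which the unadjusted p was under 0.05. Psme2, a subunit of the interferon-inducible cytoplasmic activator, differed by -0.12 ± 0.078 without overlap (limma adjusted p = 0.494). Psme4, an activator linked to acetylated histones, differed by 0.083 ± 0.089, with congenic pools higher and no overlap. The annotation also holds Psme2b, a close copy of Psme2, and whether the Psme2 probe reads it was not examined.

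Assembly chaperones guide the building of the complex and are not part of the finished particle. Of 5 compared, 0 were called in limma and 0 reached an unadjusted p under 0.05. Psmg1, which pairs with Psmg2 to build the alpha ring, read 13.52 and 13.42 log2 in the congenic pools, against 13.67 and 13.65 in the wild-type pools. Both congenic pools were lower, and the difference was -0.19 ± 0.091 (limma adjusted p = 0.373). Its partner Psmg2 differed by 0.046 ± 0.10 and overlapped. Psmg3, which acts at the same stage, read 13.78 and 13.68 in the congenic pools, against 13.64 and 13.61 in the wild-type pools, without overlap (0.11 ± 0.089; limma adjusted p = 0.593). The chaperones of the 19S base, Psmd5 (-0.11 ± 0.11) and Psmd10 (0.025 ± 0.093), overlapped between strains.

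The genes named after a subunit were both higher on average in the congenic pools and passed no threshold. Psme3ip1, whose protein binds PA28 gamma, read 12.66 and 12.64 log2 in the congenic pools, against 12.37 and 12.45 in the wild-type pools, with no overlap. Its difference was 0.24 ± 0.11 (limma adjusted p = 0.363), opposite in sign to that of Psme3. Psmc3ip, a meiotic recombination factor, read 11.64 and 11.94 in the congenic pools, against 11.48 and 11.69 in the wild-type pools, with overlap (0.21 ± 0.17; limma adjusted p = 0.587). Without these genes the 32 remaining probes had a median difference of -0.049, 0 calls in limma and 4 with an unadjusted p under 0.05.

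**Figure D4:**
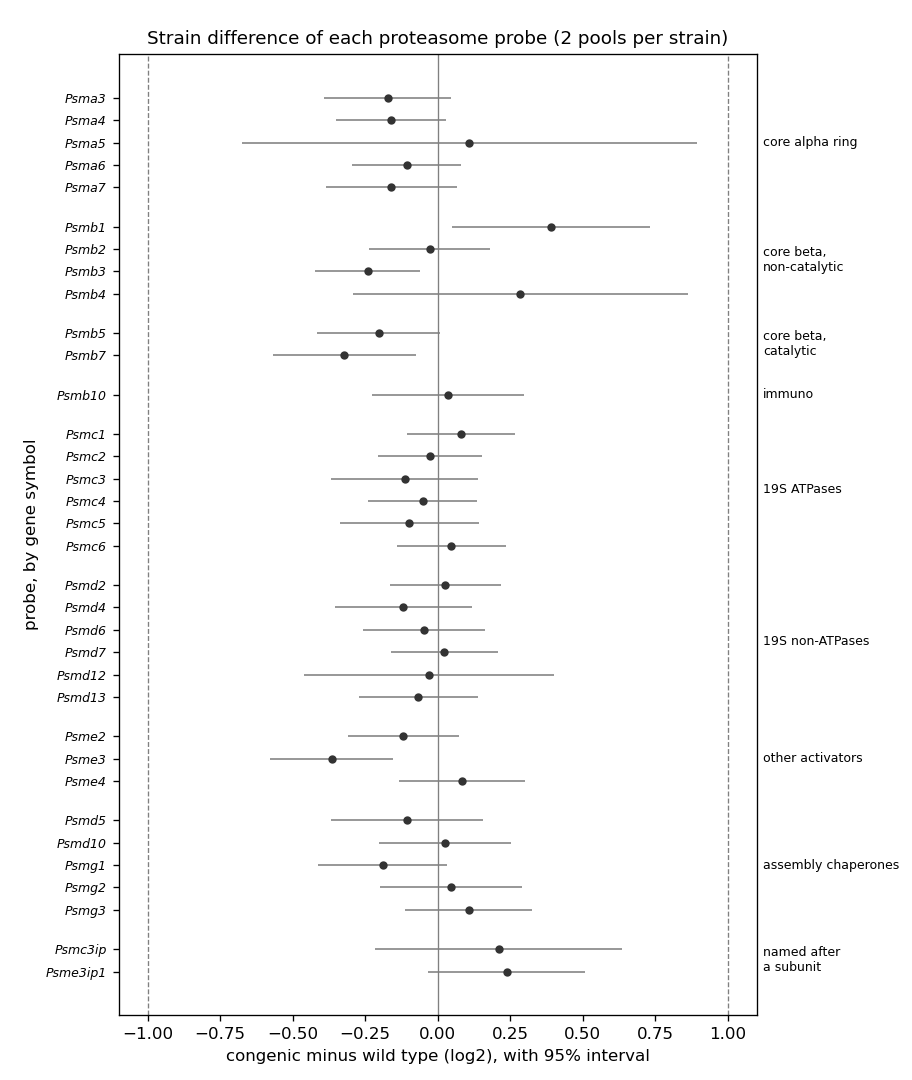
Difference of each of the 34 compared proteasome probes, congenic minus wild type in log2 (points), with its 95% interval from limma (bars), grouped by role; dashed lines mark a 2-fold change. All intervals lie between the dashed lines, and those of Psmb1, Psmb3, Psmb7 and Psme3 do not cross 0 before adjustment for the number of probes.

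Other genes of the pathway came from lists drawn up with the proteasome genes, and none of them was called, where 0.475% of all compared probes were. Among partners and transcription factors, 9 genes were compared, 0 were called in limma and 3 reached an unadjusted p under 0.05 (15.8% of all compared probes did), with a median difference of -0.12. Usp14, a deubiquitinase of the 19S particle, read 15.42 and 15.47 log2 in the congenic pools, against 15.14 and 15.05 in the wild-type pools (0.35 ± 0.076; limma adjusted p = 0.170). Zfand5, a protein that binds the proteasome, read 13.48 and 13.30 in the congenic pools, against 13.86 and 13.81 in the wild-type pools (-0.44 ± 0.10; limma adjusted p = 0.177). Nfe2l1, a transcription factor that induces proteasome genes when the proteasome is inhibited, read 12.73 and 12.64 in the congenic pools, against 12.99 and 13.15 in the wild-type pools (-0.39 ± 0.11; limma adjusted p = 0.225). The strains did not overlap for 8 of the 9 probes of this list, these 3 among them, against 49.4% of all compared probes. The 3 were picked by their p, so their lack of overlap adds nothing to it. Pomp, the chaperone that completes the core, differed by -0.12 ± 0.080, and Sem1, a small lid subunit outside the Psm naming, by -0.10 ± 0.081.

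Of the ubiquitin shuttles and the segregase around Vcp, 9 genes were compared, 0 were called in limma and 2 reached an unadjusted p under 0.05 (15.8% of all compared probes did). These were Rad23b, a shuttle that delivers ubiquitinated proteins (-0.46 ± 0.15; limma adjusted p = 0.249), and Ufd1, a cofactor of Vcp (-0.28 ± 0.084; limma adjusted p = 0.232). Vcp itself, which extracts proteins for degradation, differed by 0.099 ± 0.074. Only 2 genes of the ubiquitin and activating enzyme list were compared, Uba7 and Uba3, on 3 probes. None was called in limma and none reached an unadjusted p under 0.05. Uba6 was blank on all arrays and no gene encoding ubiquitin itself was compared, so these probes do not describe the ubiquitin genes. The list of interferon and antigen processing genes also holds the receptors Ifngr1 and Ifngr2 and the chaperones Canx and Calr. Its median is therefore not that of interferon-induced genes alone. It gave 10 compared genes, 0 calls in limma, 1 with an unadjusted p under 0.05, Tap1, and a median of -0.10. Irf1, the transcription factor that induces the immunoproteasome, differed by -0.27 ± 0.11 (limma adjusted p = 0.318). Canx, a chaperone of class I molecules in the endoplasmic reticulum, differed by 0.25 ± 0.10 (limma adjusted p = 0.318), with both congenic pools above both wild-type pools. Of 9 leukocyte marker genes with a named probe, 2 were compared, and Ptprc, Cd79b and Ms4a1 were blank on all arrays. Cd2, a T cell surface protein, read 11.63 and 11.05 in the congenic pools, against 11.77 and 12.19 in the wild-type pools, and Lyz2, a macrophage lysozyme, differed by 0.079 ± 0.092.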

How the data were processed

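Stomach RNA was transcribed into digoxigenin-labelled cRNA for Applied Biosystems arrays, per the labels' protocols. The authors deposited a log2 signal for each probe on each array, with blanks. How they normalized, and what left a cell blank, is not stated in the labels. Some values recur to every digit on different arrays. For example, 16.60162627 was the value of Psmc2 in congenic pool 2 and of Psmb7 in wild-type pool 2. The deposited values thus already share a scale across arrays, though the method is not named. The base of the logarithm was taken from the range of the values, which ends at 21.25 on all arrays, and each fold rests on it. Platform annotation named the probes (14411 with 1 symbol, 247 with several, 18354 with none). All 36 members matched RefSeq (GRCm38.p6), used for chromosomes, gene order and promoters. The 13475 probes valued on all arrays were fitted by limma 3.58.1 (R 4.3.3; eBayes with a variance trend; residual degrees of freedom 2, prior 3.97). Tests were two-sided and Benjamini-Hochberg adjusted, and the fit was tested on simulated data with changes of 1 and 2 log2. The differences of the proteasome probes were smaller, between -0.37 and 0.39, so that check does not describe power at their size. Dim probes were kept and no pseudocount was added. The number of arrays limits the precision. Alternatives were a block for the pool number, quantile normalization, centring on medians, a filter on dim probes, other variance models, 1 blank allowed and leaving out each pool. The medians of the compared probes already lay between 12.819 and 12.824 log2 on the arrays. Quantile normalization and centring could therefore change little. The members and lists were chosen with earlier results of these data known. Genes given with every array's value were Psmb8, members on chromosome 17, and the 6 members with the smallest p on either side of 0. Psma5 and Psmd12 were added after their values were seen, as were Psmb10, Thbs2, H2-Ob, Atp4a, Cblif, Gkn2, Clps, Apoa1, Ttr, Pomp, Sem1 and Vcp. Other list genes were the up to 3 of smallest p. Figures used matplotlib 3.10.9.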

Additional observations from a re-analysis of the deposited data

How the results depend on the processing

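No proteasome probe passed in limma under any of the 11 alternative fits or at an adjusted p of 0.1. The count at an unadjusted p under 0.05, 4 of 34, was 1 without the variance trend and between 2 and 4 when single pools were left out (2 without congenic pool 1). With dim probes (those below the median level) left out, that count was 5 of 32, where 19.7% of all kept probes had such a p. The median difference of -0.039 lay between -0.094 (without congenic pool 1) and -0.0051 (without congenic pool 2). Of 372 recomputed differences, 19 turned sign, in 14 of the 34 probes and in each case with a pool left out. Over the fits without 1 pool, the difference ranged from -0.36 to 0.58 for Psma5, -0.080 to 0.65 for Psmb4, -0.29 to 0.23 for Psmd12, -0.056 to 0.13 for Psmb10, -0.11 to 0.052 for Psmb2, -0.075 to 0.022 for Psmc2, -0.23 to 0.0060 for Psmc3, -0.20 to 0.0021 for Psmc5, -0.00075 to 0.095 for Psmc6, -0.044 to 0.094 for Psmd10, -0.024 to 0.076 for Psmd2, -0.10 to 0.012 for Psmd6, -0.022 to 0.068 for Psmd7 and -0.013 to 0.10 for Psmg2. The cause was not tested. The remaining 20 probes, Psmb1, Psmb3, Psmb5, Psmb7 and Psme3 among them, kept their sign in all fits. The balance of Psmb10 against Psmb5 and Psmb7 lay between 0.13 and 0.47 with a pool left out. The strains share pool numbers, but nothing in the labels ties the pools: the correlation of pool 1 minus pool 2 between strains was -0.064 over the compared probes. With the replicate number as a block, 0 proteasome probes passed and 3 had an unadjusted p under 0.05. The fits with quantile normalization and with centred medians could change little, since the array medians already nearly coincided. Psme3 differed by -0.363 and -0.367 in those fits, against -0.366 in the main fit. Without the variance trend, 1 skeletal muscle and 0 liver markers passed, in place of 3 and 2. With a robust prior 5 muscle markers passed, and 1 liver marker passed with the block or without dim probes. Without congenic pool 1, 5 of the pancreas markers passed, 1 of the muscle and 0 of the liver markers. Signal over background is not given with these values, so its effect on dim probes is unknown.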
